A study of Homo sapiens with 2 samples.

Results

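The genes described here encode 2 families of RNA-binding splicing factors, the heterogeneous nuclear ribonucleoproteins (hnRNPs) and the serine/arginine-rich proteins (SR proteins, gene symbols SRSF). Members were the protein-coding genes of GENCODE release 44 whose symbol starts with HNRNP, or is SRSF followed by a number, and whose Ensembl identifier is in both count tables. The rule gave 39 genes of 58735, of which 27 were hnRNP genes and 12 were SRSF genes. RNA came from MCF10a-Snail-ER cells, human mammary epithelial cells that stably express the repressor Snail fused to the estrogen receptor, treated for 1 day with 100 nM tamoxifen, which switches the fusion on and sets off epithelial-to-mesenchymal transition (EMT). The RNA was described as matched and was sequenced as a Nanopore direct RNA library, in which native strands are read, and as an Illumina TruSeq stranded mRNA library, made from fragmented and amplified RNA. Each platform had 1 library, none was untreated, and both carried the same fusion and treatment, so only the platforms could be compared. No value has a replicate, and every interval and p-value below covers counting error between these 2 libraries only.

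Splicing factors of both families bind nascent RNA and steer the choice of splice sites. SR proteins mostly bind exonic enhancers and recruit the spliceosome, whereas many hnRNPs bind silencers or introns and oppose exon inclusion. Several of these genes control their own level through a poison exon, an alternative exon with an early stop codon whose inclusion sends the transcript to nonsense-mediated decay (NMD). Some hnRNP genes have also left many processed pseudogenes, copies of the mature mRNA inserted elsewhere in the genome. The deposited counts are per gene, so they do not separate isoforms, and a read from a poison-exon transcript counts for its gene like any other.

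Poison exons are shown first, because they are the regulatory feature that sets several members apart. In the annotation, 12 members (7 SRSF and 5 hnRNP genes) had an internal exon that holds the stop codon of an NMD transcript. The exon also had to overlap no exon of a protein-coding transcript of the same gene. HNRNPUL2-BSCL2, counted among the 5 hnRNP genes, has 1 annotated transcript, an NMD transcript, and so met the second condition by default. Such an exon was found for 5 of the 7 SRSF genes on the list of genes with a described poison exon. These were SRSF3, SRSF4, SRSF6, SRSF7 and SRSF11, and it was not found for SRSF2 or SRSF5. The lines give the translated part of such an exon, 5′ to 3′ on the gene's strand in hg38, with the stop codon in capitals.
SRSF3, chr6:36599821-36599854, plus strand: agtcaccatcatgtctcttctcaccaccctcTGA
SRSF4, chr1:29166009-29166064, minus strand: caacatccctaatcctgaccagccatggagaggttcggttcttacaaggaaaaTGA
SRSF6, chr20:43459153-43459304, plus strand: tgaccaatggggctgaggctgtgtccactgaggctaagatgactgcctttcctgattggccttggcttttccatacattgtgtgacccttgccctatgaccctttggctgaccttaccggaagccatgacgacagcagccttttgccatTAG
SRSF7, chr2:38749319-38749346, minus strand: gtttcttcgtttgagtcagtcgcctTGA
SRSF11, chr1:70231859-70231908, plus strand: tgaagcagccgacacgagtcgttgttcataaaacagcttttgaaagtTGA
HNRNPL, chr19:38841624-38841682, minus strand: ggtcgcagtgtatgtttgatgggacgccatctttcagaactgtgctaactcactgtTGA
HNRNPH1, chr5:179621951-179621976, minus strand: cgttggtaacggaaagcgacctgTAA
The SRSF3 exon was 456 bases long with 422 bases after its stop codon, and the SRSF4 exon was 175 bases long with 119 after it. In SRSF7 the exon form shown was 449 bases long, and in HNRNPL the exon was 70 bases long.

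The members rich in pseudogenes show how closely copies can follow their source. HNRNPA1L2 and HNRNPA1L3 are annotated as protein-coding relatives of HNRNPA1, and HNRNPCL1 as a relative of HNRNPC. The lines give the first 90 bases of the coding sequence, 5′ to 3′, for HNRNPC and HNRNPCL1, with capitals in HNRNPCL1 where it differs from HNRNPC.
HNRNPC: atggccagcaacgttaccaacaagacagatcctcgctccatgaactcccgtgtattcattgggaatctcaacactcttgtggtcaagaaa
HNRNPCL1: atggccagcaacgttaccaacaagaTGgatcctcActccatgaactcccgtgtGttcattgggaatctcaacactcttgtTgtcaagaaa
HNRNPCL1 differed from HNRNPC at 5 of these 90 bases. Over the canonical transcript of HNRNPA1, 32.7% of all words of 50 bases also occurred in transcripts of other genes that do not overlap it, and the share was 54.5% for HNRNPA1L2 and 51.6% for HNRNPA1L3. Among the other members rich in pseudogenes it was 18.3% for HNRNPA3, 16.1% for HNRNPC, 13.5% for HNRNPK and 0.861% for SRSF3. It was also 18.3% for HNRNPL, which has only 2 pseudogenes, and 0% for HNRNPA2B1, which has none.

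Total counts were 403235 by Nanopore and 191741714 by Illumina, so 1 Nanopore count stood for 2.48 CPM (counts scaled to a common library total) and 1 Illumina count for 0.00522 CPM. The 7 markers of basal mammary epithelium that were examined had counts in both libraries, among them KRT5 at 1686.4 CPM by Nanopore and 1447.3 CPM by Illumina. Of the leukocyte markers, PTPRC had 0 and 2 counts and CD3E 0 and 0, while CD68 had 13 and 8643. The 3 endothelial markers summed to 0 Nanopore counts and 990 Illumina counts. The 4 fibroblast markers summed to 11 and 6210, of which DCN had 10 and 5075.

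Nearly all members were expressed. Nanopore counts were present for 34 of 39 members and Illumina counts for 37. HNRNPCL3 and HNRNPCL4 had 0 counts in both libraries, HNRNPCL2 had 0 and 2, and HNRNPCL1 had 0 by Nanopore and 43 by Illumina. SRSF12 had 0 Nanopore counts, where 3 counts would have been 7.44 CPM, and 264 Illumina counts, 1.38 CPM. The other 34 members, 23 hnRNP and 11 SRSF genes, passed the filter of a mean of at least 5 CPM over the libraries.

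Each of these 34 members had a lower CPM by Nanopore than by Illumina, whereas 63.2% of all 12414 genes that passed the filter did. In the exact conditional binomial test on the counts, with Benjamini-Hochberg adjustment over all 12414 genes, calls required an adjusted p below 0.05 together with a ratio of at least 2-fold on the log2(CPM + 1) scale. Illumina was called higher for 22 of the 34 members, where the background was 21.7% of all tested genes, and Nanopore for 0, where it was 17.7%. Among the 10498 protein-coding genes tested, 71.3% had a lower CPM by Nanopore, 24.5% were called higher by Illumina and 9.07% by Nanopore. Members had more reads than most genes (a median of 50 Nanopore counts against 9), which makes a call easier. With the filter raised to a mean of 20 CPM, 22 of 32 members were called higher by Illumina, beside 28.1% of the genes that passed it. At 4-fold, 5 members were called higher by Illumina, all hnRNP genes, against 7.31% of tested genes.

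**Figure D1:**
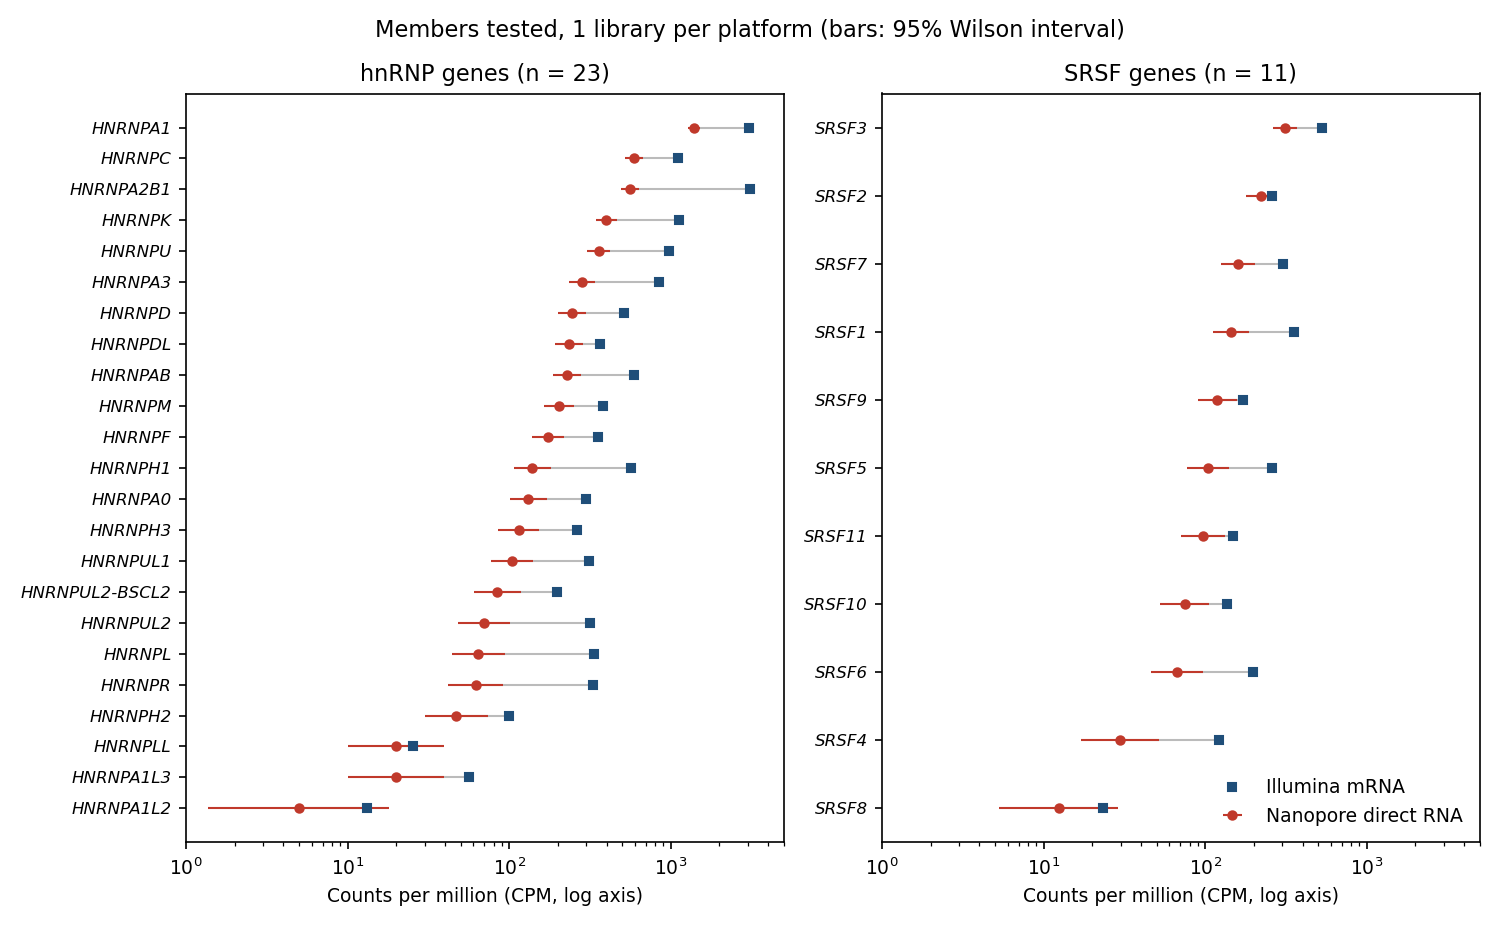
Level in CPM (log axis) of the 34 tested members in the Nanopore direct RNA library (circles, with 95% Wilson intervals) and the Illumina mRNA library (squares), with hnRNP genes on the left and SRSF genes on the right. Each square lies to the right of its circle, and the gap is widest for HNRNPA2B1, HNRNPR and HNRNPL.

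These CPM values are not divided by gene length, and fragmented libraries give more counts to longer transcripts, whereas a direct RNA count is a read of a strand. Where Illumina counts were divided by the length of the annotated canonical transcript (TPM, the length-scaled counterpart of CPM), the log2 ratio of Nanopore CPM to Illumina TPM was below 0 for 20 of the 34 members. Illumina was then called higher for 7 members, against 7.74% of 11690 tested genes, and Nanopore for 2, against 29.9%. With the union of exons as length, the counts were 6 (background 9.62%) and 3 (28.5%), and with the mean transcript length 8 (12%) and 1 (21.6%). With the canonical length 14 members changed direction, so ratios below are given first in CPM and, where a second value follows, in TPM by canonical length.

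The hnRNP genes had a lower median ratio than the SRSF genes in CPM (difference −0.38) and in TPM by union (−0.08), mean (−0.18) and canonical (−0.30) length. The median log2 ratio was −1.25 for the 23 hnRNP genes (quartiles −1.57 and −1.07) and −0.87 for the 11 SRSF genes (quartiles −1.30 and −0.68), beside −0.42 for all tested genes, and in TPM by canonical length it was −0.25, 0.05 and 0.49, so that the SRSF median changed sign. After subtraction of the median of all tested genes, the hnRNP median was −0.83 in CPM and −0.74 in TPM by canonical length, and the SRSF median was −0.45 and −0.44. With the mean transcript and the union of exons as lengths, the hnRNP values were −0.84 and −0.68 and the SRSF values −0.66 and −0.60. Both families thus lay under the middle of all genes on the 4 scales, and 26 to 32 of the 34 members did so one by one. Illumina was called higher for 18 of 23 hnRNP genes and 4 of 11 SRSF genes in CPM, beside 21.7% of all tested genes. In TPM by canonical length it was called higher for 5 and 2 of them, beside 7.74%. These are descriptions of the gene lists, since members are not replicates.

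**Figure D2:**
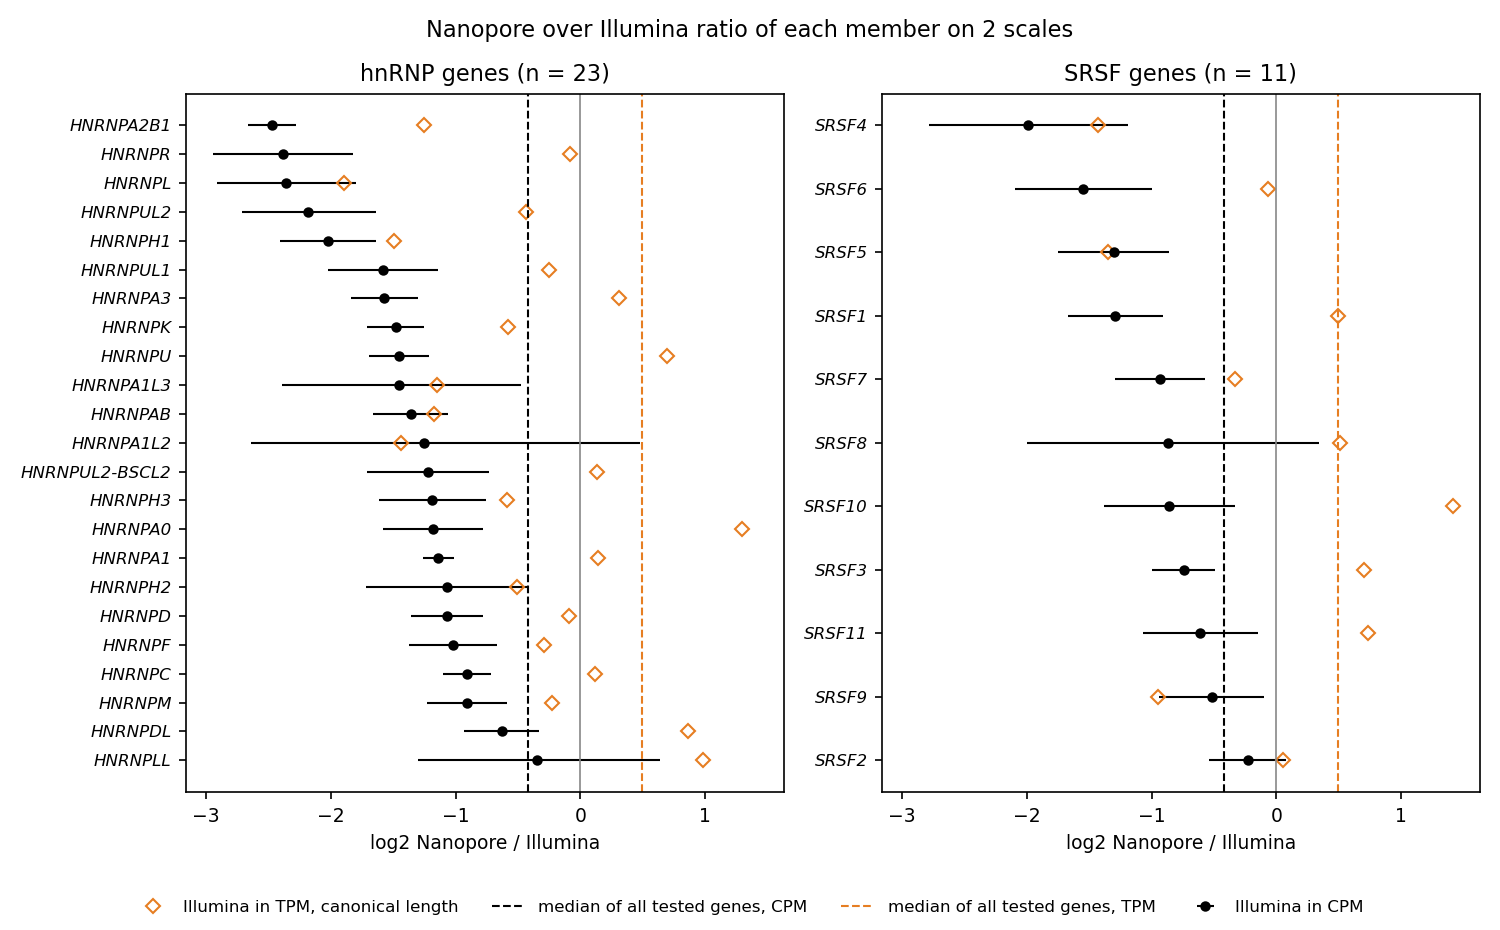
Log2 ratio of Nanopore CPM to the Illumina level for each of the 34 tested members, with Illumina in CPM (black, with 95% counting intervals) and in TPM by canonical transcript length (open diamonds). Dashed lines mark the medians of all tested genes, −0.42 and 0.49, and most members lie to the left of the line of their scale.

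As shares of each library, hnRNP genes made up 0.553% of all Nanopore counts (95% Wilson interval 0.531 to 0.577%), 1.52% of the Illumina counts and 0.690% of the Illumina TPM. SRSF genes held 0.134% (0.123 to 0.146%), 0.250% and 0.145%. The hnRNP genes together had 4.13 times the Nanopore counts of the SRSF genes (3.76 to 4.54), 6.10 times their Illumina counts and 4.75 times their Illumina TPM (4.80 and 6.43 times with the union and mean lengths). The TPM values fell outside the Nanopore intervals for the hnRNP share and for the ratio of the families, and inside it for the SRSF share.

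HNRNPA1, HNRNPA2B1 and HNRNPC encode the core proteins that package nascent transcripts. HNRNPA1 (ENSG00000135486, chr12:54280193-54287088) had 563 Nanopore counts, 1396.2 CPM (95% Wilson interval 1285.6 to 1516.3), and 588309 Illumina counts, 3068.2 CPM. Its log2 ratio was −1.14 (counting interval −1.26 to −1.01), the adjusted p by the exact test was 3.14e-100, and the ratio was 0.14 in TPM, where it was not called. The short average length of its 84 annotated transcripts, 642.8 bases against 3744 for the canonical one, made its TPM ratio −2.04 with the mean length, which was called. HNRNPA2B1 (ENSG00000122566, chr7:26171151-26201529) had 225 Nanopore counts, 558.0 CPM (489.7 to 635.8), and 594633 Illumina counts, 3101.2 CPM. It had the lowest ratio of the 34 tested members in CPM, −2.47 (−2.66 to −2.28; adjusted p 4.69e-277 by the exact test), and it was still called higher by Illumina in TPM, with −1.25, though not with the mean (−0.93) or union (−0.25) length. HNRNPC (ENSG00000092199, chr14:21209136-21269494) had 239 Nanopore counts, 592.7 CPM, and 213440 Illumina counts, 1113.2 CPM, a ratio of −0.91 (−1.10 to −0.72) that was short of 2-fold, and 0.12 in TPM.

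The balance of these core genes differed between the libraries and with the length used. HNRNPA1 had 2.50 times the counts of HNRNPA2B1 by Nanopore (2.14 to 2.92) but 0.989 times by Illumina, or 0.959 times in TPM. With the union and mean lengths it had 1.86 and 5.40 times the TPM of HNRNPA2B1, so that the Illumina value lay under or over the Nanopore interval depending on the length. HNRNPC had 1.06 times the counts of HNRNPA2B1 by Nanopore (0.886 to 1.27) and 0.411 times its Illumina TPM, or 0.621 and 0.957 times with the union and mean lengths. Within the hnRNP family, HNRNPA2B1 took 10.1% by Nanopore counts (8.90 to 11.4%) and 19.2% by Illumina TPM, and HNRNPA1 took 25.2% (23.5 to 27.1%) and 18.4%. HNRNPA2B1 carries 35 annotated NMD transcripts among its 49, the most of any member, and HNRNPA1 carries 18 among 84.

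The other genes of the A/B type, related to the core proteins in sequence, were lower by Nanopore in CPM to differing extents. HNRNPA3 had 114 and 161035 counts, 282.7 CPM by Nanopore and 839.9 CPM by Illumina, a log2 ratio of −1.57 (−1.84 to −1.30) in CPM that was called and of 0.31 in TPM that was not. HNRNPAB had 92 and 112845 counts, 228.2 and 588.5 CPM, and was called higher by Illumina on both scales, with −1.36 (−1.66 to −1.06) and −1.17. HNRNPA0, an intronless gene with an annotated transcript of 8713 bases, had 53 and 57335 counts, and its call turned from higher by Illumina (−1.18, −1.58 to −0.78) to higher by Nanopore in TPM (1.29), as with the mean length (1.65), and was lost with the union length (0.50). HNRNPD, whose protein also binds AU-rich elements in mRNA, had 99 and 99032 counts with ratios of −1.07 (−1.36 to −0.78) and −0.09, and HNRNPDL, its close relative, had 95 and 69914 counts with ratios of −0.63 (−0.93 to −0.33) and 0.86. HNRNPD had 1.04 times the Nanopore counts of HNRNPDL (0.787 to 1.38) and 2.02 times its Illumina TPM, or 1.12 and 2.01 times with the union and mean lengths.

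The H/F genes encode proteins that bind runs of G. HNRNPH1 (ENSG00000169045) had 56 Nanopore counts, 138.9 CPM (107.0 to 180.3), and 108946 Illumina counts, 568.2 CPM, and was called higher by Illumina on both scales, with ratios of −2.02 (−2.41 to −1.64) and −1.49, though not with the union length (−0.22). HNRNPH2 on the X chromosome had 19 and 19191 counts with ratios of −1.07 (−1.72 to −0.42) and −0.51, HNRNPH3 had 46 and 50125 with −1.19 (−1.61 to −0.76) and −0.59, and HNRNPF had 70 and 67738 with −1.02 (−1.37 to −0.67) and −0.29. On these 2 scales the 3 genes were called in CPM only, and HNRNPH2 was also called higher by Illumina with the union length (−1.31). HNRNPH1 had 2.95 times the counts of HNRNPH2 by Nanopore (1.76 to 4.93) and 5.82 times its level in Illumina TPM, or 1.37 and 9.37 times with the union and mean lengths. HNRNPH2 shares 362 exon bases on the same strand with RPL36A-HNRNPH2, which had 118 Nanopore and 95298 Illumina counts. The split of counts between them is uncertain, and so are the ratios that use HNRNPH2.

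HNRNPL and HNRNPLL encode regulators that bind CA repeats. HNRNPL (ENSG00000104824, chr19:38836370-38852347) had 26 Nanopore counts, 64.5 CPM (44 to 94.5), and 64266 Illumina counts, 335.2 CPM. Its ratio was −2.36 (−2.91 to −1.80; adjusted p 6.69e-29 by the exact test) in CPM and −1.89 in TPM, the lowest of the tested members on the second scale. HNRNPLL had 8 and 4891 counts with ratios of −0.35 (−1.30 to 0.64) and 0.98, and no difference was detectable at this depth. HNRNPL stood ninth among the 34 members by Illumina TPM, with 242.5 TPM, and at rank 27 by Nanopore CPM. HNRNPL and HNRNPAB were the 2 members called higher by Illumina on all 4 scales tried, which were CPM and TPM by the canonical, mean and union lengths. HNRNPL shares 561 exon bases with the protein-coding gene ENSG00000268083 on the same strand. That gene had 45 Nanopore counts beside 26 for HNRNPL, and 28688 Illumina counts beside 64266. The split of their counts is uncertain, and its part in the ratio of HNRNPL was not tested.

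Among the remaining hnRNP genes, HNRNPK, which binds runs of C, had 161 and 214183 counts, 399.3 CPM by Nanopore and 1117.0 CPM by Illumina, with ratios of −1.48 (−1.71 to −1.25) and −0.58. HNRNPU, a scaffold-attachment factor, had 144 and 187455 counts with ratios of −1.45 (−1.69 to −1.21) and 0.69. HNRNPR had 25 and 62795 counts with ratios of −2.38 (−2.94 to −1.82) and −0.08, so that a gap of 5.21-fold in CPM was nearly absent with the canonical length, but it was −1.44 with the mean length, which was called, and −0.71 with the union length. HNRNPUL1 had 42 and 60092 counts with −1.58 (−2.02 to −1.14) and −0.25, and HNRNPUL2 had 28 and 60922 counts with −2.18 (−2.71 to −1.64) and −0.44. HNRNPUL2-BSCL2, an annotated readthrough of HNRNPUL2 into its neighbour, had 34 and 38007 counts with −1.22 (−1.71 to −0.73) and 0.13. The last 2 genes share exons, so the split of their counts is uncertain. These 6 were called higher by Illumina in CPM and not in TPM by canonical length. With other lengths HNRNPU was called higher by Nanopore (1.59, union), and HNRNPUL1 (−1.07, mean) and HNRNPUL2 (−1.19, union) were called higher by Illumina. HNRNPM, which binds GU-rich introns, had 82 and 73337 counts with −0.91 (−1.23 to −0.59) and −0.23 and was called on neither scale.

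The 11 tested SRSF genes ranged from −1.99 to −0.23 in CPM. SRSF1, first known as ASF/SF2, had 58 Nanopore counts, 143.8 CPM (111.3 to 185.9), and 67660 Illumina counts, 352.9 CPM, with ratios of −1.29 (−1.67 to −0.91) and 0.49. SRSF1 shares 1890 exon bases on the same strand with ENSG00000266086, which had 63 Nanopore and 38305 Illumina counts, so the split of their counts is uncertain. SRSF4 (ENSG00000116350, chr1:29147743-29181900) had 12 Nanopore counts, 29.8 CPM (17.0 to 52.0), and 23301 Illumina counts, 121.5 CPM, and was called higher by Illumina on both scales (−1.99, −2.78 to −1.19, and −1.43). SRSF4, SRSF5 and SRSF6 encode closely related SR proteins. SRSF5 had 42 and 49600 counts, 104.2 and 258.7 CPM, and was called on both scales as well (−1.30, −1.75 to −0.86, and −1.35). With the union length neither SRSF4 (−0.32) nor SRSF5 (−0.33) was called. SRSF6 had 27 and 37896 counts with −1.55 (−2.09 to −1.0) and −0.07 and was called in CPM only. The adjusted p-values of these 4 genes in CPM were between 1.90e-14 (SRSF1) and 4.04e-09 (SRSF4) by the exact test.

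The other SRSF genes were short of 2-fold in CPM, and in TPM by canonical length some were farther apart. SRSF2 (ENSG00000161547, chr17:76734115-76737333), which binds G-rich and C-rich exonic enhancers, had 89 Nanopore counts, 220.7 CPM (179.4 to 271.6), and 49767 Illumina counts, 259.6 CPM. Its ratio of −0.23 (−0.54 to 0.08) was the nearest to 0 of the 34 tested members in CPM, was not past the threshold (adjusted p 0.217 by the exact test), and was 0.05 in TPM. SRSF3, the smallest SR protein, had 126 and 100530 counts, 312.5 and 524.3 CPM, with ratios of −0.74 (−1.0 to −0.49) and 0.70. SRSF7, which carries a zinc knuckle, had 64 and 58196 counts with −0.93 (−1.29 to −0.57) and −0.33, and SRSF11 had 39 and 28405 with −0.61 (−1.07 to −0.15) and 0.73. SRSF9 had 48 and 32862 counts with −0.52 (−0.94 to −0.10) and −0.95. SRSF8, a relative of SRSF2, had 5 and 4489 counts with −0.87 (−2.0 to 0.34) and 0.51. SRSF10, which represses splicing when dephosphorylated, had 30 and 26007 counts with −0.86 (−1.38 to −0.33) and 1.41, the latter called higher by Nanopore, as it was with the union length (1.24) but not with the mean length (−0.17). SRSF11 was called higher by Nanopore with the union length (1.02).

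By Nanopore counts SRSF3 led the family with a share of 23.3% (20.0 to 27.1%), followed by SRSF2 with 16.5% (13.6 to 19.8%), whose interval did not overlap that of SRSF3. By Illumina counts SRSF3 led as well, with 21.0%, and SRSF5 had 10.4%. By Illumina TPM with the canonical length SRSF5 led with 18.4%, followed by SRSF9 with 15.9%, SRSF2 with 14.7%, SRSF7 with 13.7% and SRSF3 with 13.2%. SRSF3 had 3.0 times the Nanopore counts of SRSF5 (2.12 to 4.25) and 2.03 times its Illumina counts. In Illumina TPM the value was 0.717 with the canonical length and 1.53 and 1.47 with the union and mean lengths. The order of SRSF3 and SRSF5 thus turned with the canonical length only. SRSF2 had 1.81 times the TPM of SRSF5 with the union length, more than SRSF3, and 0.928 times with the mean length, less than SRSF3. Across the 34 tested members, Spearman's rho between Nanopore CPM and Illumina TPM was 0.79. It was 0.85 over the 23 hnRNP genes and 0.66 over the 11 SRSF genes. The members share the 2 libraries and the same annotation, and the values are descriptions.

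The 7 SRSF genes on the poison exon list, chosen from general knowledge of the family, had a median log2 ratio of −0.93 in CPM and −0.07 in TPM. The 4 tested SRSF genes outside it had medians of −0.86 and 0.50, beside −0.42 and 0.49 for all tested genes. Illumina was called higher for 3 of the 7 listed genes in CPM (SRSF4, SRSF5 and SRSF6) and for 1 of the other 4 (SRSF1), where the background was 21.7%. The list does not match the search of the annotation, which found such an exon in SRSF9, outside it, and not in SRSF2 or SRSF5, on it. SRSF2 and SRSF5 have 2 and 1 annotated NMD transcripts. The search left out any exon that overlaps an exon of a protein-coding transcript, so it could miss a poison exon. The 11 tested members of both families in which the search found such an exon had medians of −1.22 and −0.07. Illumina was called higher for 6 of these 11 in CPM. The 26 tested members with an annotated NMD transcript had medians of −1.18 and −0.01, and the 8 without had −1.22 and −0.55. In CPM these medians differed by less than the quartile range of either set, and Spearman's rho between the ratio and the number of NMD transcripts was 0.04 over the 34 members. The medians were farther apart with the union length, −0.21 with an NMD transcript and −1.25 without, and were −0.69 and −0.86 with the mean length. Illumina was called higher for 1 and 5 of these members with the union length (background 9.62%), and for 7 and 1 with the mean length (12%).

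Pseudogenes named for a member numbered 134, of which 123 belonged to 14 hnRNP genes and 11 to SRSF genes. Their sums were 16 Nanopore and 37029 Illumina counts in all. HNRNPA1 had 74 of them, with 13 Nanopore counts on 3 and 16758 Illumina counts on 42. Its pseudogenes therefore took 2.26% of the counts of gene and pseudogenes by Nanopore (95% Wilson interval 1.32 to 3.82%) and 2.77% by Illumina (2.73 to 2.81%), and the Illumina value lay inside the Nanopore interval. HNRNPA1P7 alone had 10088 Illumina and 6 Nanopore counts, and HNRNPA1P10 had 5343 and 6.

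The pseudogene share was lower by Nanopore for HNRNPC. HNRNPC has 9 named pseudogenes with 1 Nanopore count and 7007 Illumina counts, shares of 0.417% (0.0736 to 2.32%) and 3.18% (3.11 to 3.25%), and HNRNPCP2 held 6782 of the Illumina counts. HNRNPCP2 overlaps another annotated gene, as do HNRNPA1P7 and HNRNPA1P10, so the split of counts at these places is uncertain. HNRNPA3 has 16, with 1 Nanopore count and 6340 Illumina counts, shares of 0.870% (0.154 to 4.76%) and 3.79%, which the Nanopore interval included. The 5 pseudogenes of HNRNPK had 0 Nanopore counts, which allows a share of up to 2.33%, and 3378 Illumina counts, a share of 1.55%, so that no difference was detectable at this depth. HNRNPL has only 2, but HNRNPLP2 on chromosome 15, an unprocessed pseudogene, had 2827 Illumina counts and 1 Nanopore count. SRSF3 has 5, with 0 and 78 counts.

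**Figure D3:**
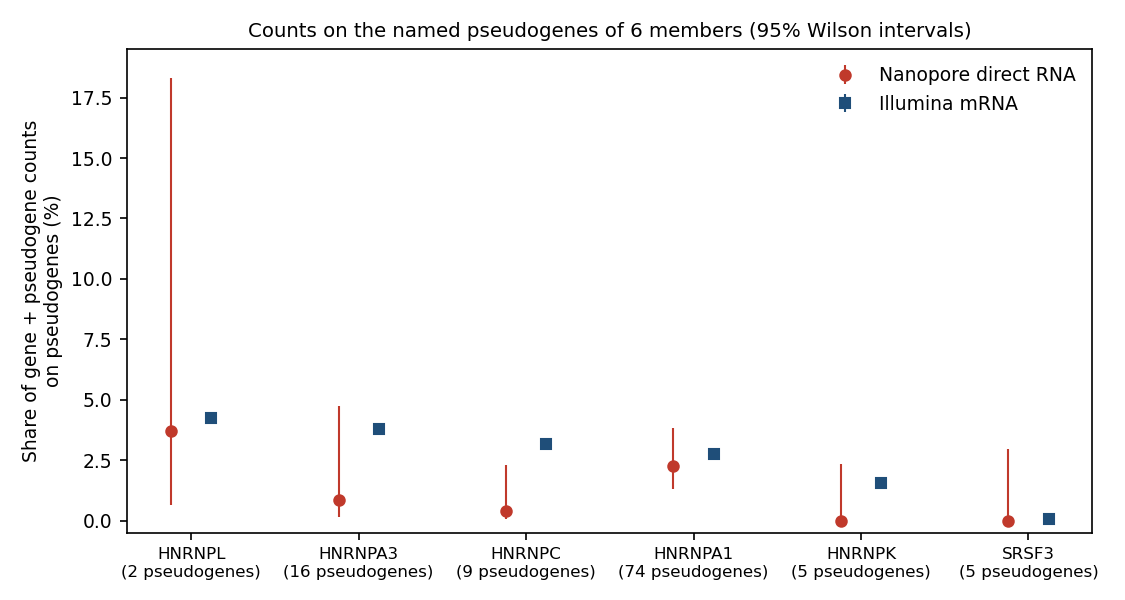
Share of the summed counts of a gene and its named pseudogenes that fell on the pseudogenes, in percent, by Nanopore (circles) and Illumina (squares) with 95% Wilson intervals, for the 5 members with at least 5 pseudogenes and for HNRNPL. The Illumina value lies above the Nanopore interval for HNRNPC and inside it for the other members.

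Adding the counts of the pseudogenes to each member changed none of the 34 members' calls. The 5 members with at least 5 pseudogenes had a median ratio of −1.14 in CPM and 0.14 in TPM, and the 29 other tested members had −1.22 and −0.25. The relatives of HNRNPA1, which share long words with other genes and whose counts are uncertain for that reason, stood close to HNRNPA1 in CPM only. HNRNPA1L3 had 8 and 10736 counts with −1.45 (−2.39 to −0.48), and HNRNPA1L2 had 2 and 2523 with −1.25 (−2.64 to 0.48). In TPM by canonical length the ratio was −1.15 for HNRNPA1L3, which was called, and −1.44 for HNRNPA1L2, beside 0.14 for HNRNPA1, and with the union length both relatives were called higher by Illumina (−1.94 and −2.21). HNRNPA1 had 70.4 times the counts of HNRNPA1L3 by Nanopore (35.5 to 139.5) and 54.8 times by Illumina, or 28.2, 15.7 and 138.4 times in TPM by canonical, union and mean length.

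Many members share their locus with another gene, and counts there differed by platform. Of 36 pairs of a member and a gene in the tables whose body overlaps it (the readthrough and HNRNPUL2 are counted from each side), 24 had counts in both libraries. The neighbour's count as a percentage of the member's was higher by Nanopore in 23 of these 24, including all 15 on the opposite strand. The exception was HNRNPUL2 seen from the readthrough. Of the 30 pairs with any count, 24 had the higher percentage by Nanopore. Pairs with Illumina counts alone had the lower one, such as NFE2L3 on the opposite strand of HNRNPA2B1, with 511. The members' own ratios were low in CPM (median −1.21, beside −0.42 for all tested genes). A low ratio of the member raises its neighbour's percentage by Nanopore, and no background is available for these pairs. In 16 of the 36 pairs the neighbour had at least 50% of the member's Nanopore count, and in 6 pairs at least 50% of its Illumina count. The lncRNA gene ENSG00000258344, whose body contains HNRNPA1 on the same strand, had 592 Nanopore counts beside 563 for HNRNPA1, and 6 Illumina counts beside 588309, although no exon of the 2 genes overlaps. On the opposite strand, PHYKPL had 92 Nanopore counts beside 92 for HNRNPAB, with 6599 by Illumina, and RUFY2 had 50 beside 46 for HNRNPH3, with 2283 by Illumina. ENSG00000267168 had 99 beside 89 for SRSF2 and 383 by Illumina, and HNRNPK-AS1 had 75 beside 161 for HNRNPK and 78 by Illumina. The part of these neighbours in the members' ratios was not tested.

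**Figure D4:**
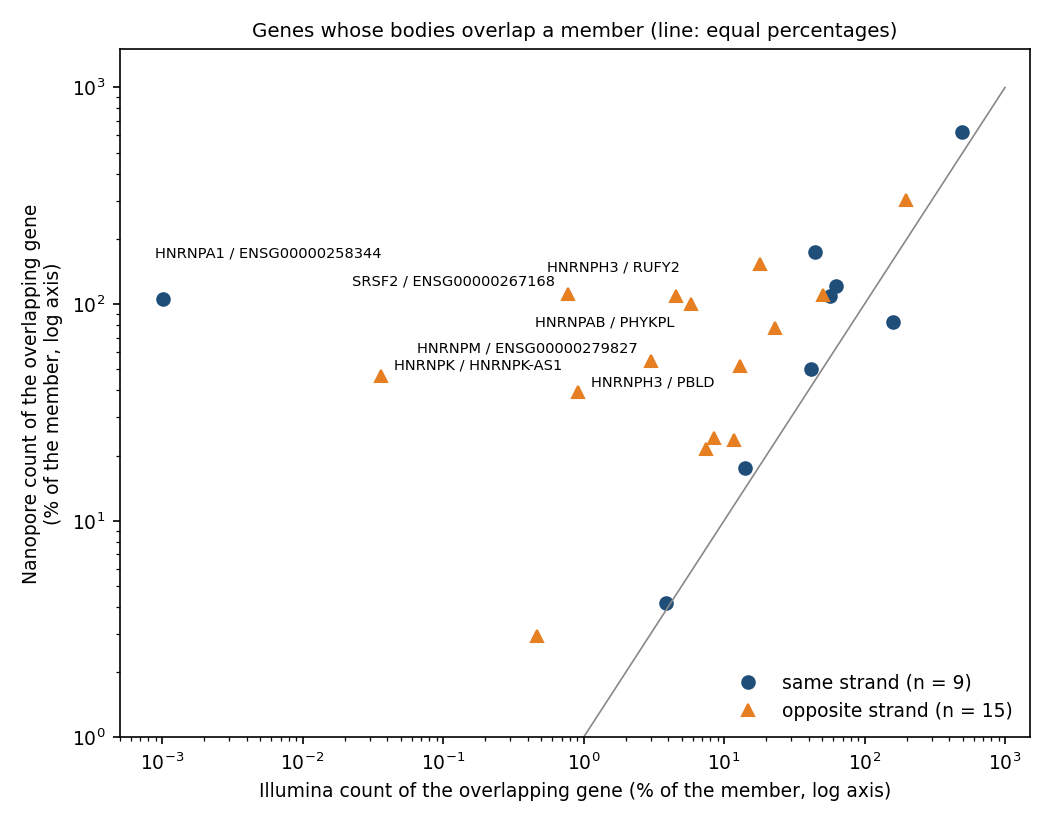
Count of each overlapping gene as a percentage of the member's count, Nanopore against Illumina (both log axes), for the 24 pairs with counts in both libraries, by strand (9 same, 15 opposite). Of these, 23 lie above the line of equal percentages, and the pair of HNRNPA1 and ENSG00000258344 is farthest from it.

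Among the 16 members that overlap no other annotated gene, 11 were tested, and 5 of them were called higher by Illumina in CPM, where the background was 26% of the 2810 tested genes without overlap. These were HNRNPA0, HNRNPA1L3, HNRNPF, HNRNPR and SRSF5. The 11 members had a median ratio of −0.93 in CPM and 0.12 in TPM by canonical length, and the 23 members with an overlap had −1.29 and −0.25.

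Other genes of the splicing machinery were counted from lists of related factors. Of 8 SR protein kinases and import receptors, which phosphorylate SR proteins and carry them into the nucleus, 4 were called higher by Illumina in CPM and 0 by Nanopore, with a median ratio of −0.82. Of 8 SR-related proteins the counts were 6 and 0, with a median of −1.52, and of 10 hnRNP-like proteins they were 4 and 1, with −0.86. Of 16 early spliceosome genes they were 6 and 1, with −0.85, and of the 6 tested splicing regulators linked to EMT they were 1 and 1, with −0.45. Over all tested genes 21.7% were called higher by Illumina and 17.7% by Nanopore, with a median of −0.42, so that the EMT-linked counts were near the background. In TPM the medians were −0.02, −0.25, 0.22, −0.62 and 1.27 in the same order, beside 0.49 for all tested genes. The hnRNP-like and EMT-linked lists changed sign, as did the median of all tested genes, and only the EMT-linked list lay above that median. With the union length the kinase and SR-related lists changed sign too (0.77 and 0.39), beside 0.40 for all tested genes. Among called genes of these lists the lowest ratio belonged to SRPK1, an SR protein kinase, with 7 and 28434 counts and −3.02 (−4.0 to −2.0), followed by CELF1, which binds GU-rich RNA, with 10 and 32258 counts and −2.71, and the values were −1.55 and −0.36 in TPM. The highest among called genes belonged to U2AF1, which recognises the AG at the end of introns, with 25 and 419 counts and 4.31 (3.66 to 4.95), followed by RBFOX2, a regulator of exons in mesenchymal cells, with 154 and 25822 counts and 1.5, and both were called higher by Nanopore in TPM too. U2AF1 has a near-identical copy in hg38, U2AF1L5, so its counts are uncertain. The epithelial splicing regulators ESRP1 and ESRP2 had 5 and 3663 counts and 3 and 1199 counts, and no difference was detectable at this depth.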

How the data were processed

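Whole-number counts per gene, without normalization, were deposited by the authors for 1 Nanopore direct RNA library and 1 Illumina mRNA library of MCF10a-Snail-ER cells. The submitters' processing notes name hg38, minimap2 2.11-r797, HISAT2 2.1.0 and featureCounts, with no role or order. The annotation release, strand setting and treatment of reads over several genes or places are not given in the sources used here, nor is the meaning of a suffix in the Nanopore column's name or whether long reads were corrected before counting.

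Of the 58735 identifiers, 58207 were in GENCODE release 44 (hg38), which gave names, positions, lengths and transcript types; coordinates are from it, and sequences are from its transcripts. CPM used library totals. The ratio is log2((Nanopore CPM + 1)/(Illumina CPM + 1)), with counting intervals from the 95% Wilson bounds of both values. A fold on this scale understates differences of rare genes. Illumina TPM used the Ensembl canonical transcript, and the same ratio and test with that exposure. With 1 library per platform, edgeR's quasi-likelihood test and DESeq2 have no residual degrees of freedom, so a two-sided exact conditional binomial test was used (SciPy 1.17.1), adjusted by Benjamini-Hochberg over all genes whose mean over both libraries reached 5 CPM, and checked on simulated counts. It compares these libraries, not the platforms. Amplified reads are not independent molecules. Pseudogenes were those named by a member's symbol followed by P, with or without a number.

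Members, lists and tests were chosen with earlier results of these data known. Named in full were called members, the 3 with most pseudogenes and the poison exon list; of the other lists, the 2 highest and 2 lowest called ratios. Remaining members, overlapping genes, single pseudogenes and ESRP1 and ESRP2 were named after their values were seen. Alternatives were other pseudocounts, filters, folds, TMM (edgeR 4.0.16 in R 4.3.3) and median-ratio scaling, other lengths, genes without overlap, and added pseudogene counts; TPM by canonical length and protein-coding genes only were chosen after seeing the data.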

Additional observations from a re-analysis of the deposited data

How the results depend on the processing

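The counts of 22 members higher by Illumina and 0 higher by Nanopore were 22 and 0 with pseudocounts of 0.1 and 5 CPM, with a filter of 20 CPM or none, and with pseudogene counts added. They were 19 and 0 with TMM or median-ratio scaling, which raise all ratios by about 0.09 and 0.13 on the log2 scale, where HNRNPD, HNRNPF and HNRNPH2 fell short of 2-fold. With protein-coding genes only they were 16 and 0, and the same 3 genes, HNRNPA0 (−0.97), HNRNPA1 (−0.93) and HNRNPH3 (−0.98) fell short of 2-fold. For the settings so far, other than the 20 CPM filter (28.1%), the share of all tested genes called higher by Illumina is not available here. The median ratio of all tested genes was −0.32 with TMM, −0.28 with median-ratio scaling and −0.37 with protein-coding genes only. A fold of at least 4 left 5 members higher by Illumina, through the stricter threshold alone, and the genes that overlap no other gene left 5, of fewer members tested (11).

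Division by length changed calls and signs. Illumina was called higher for 7, 6 and 8 members and Nanopore for 2, 3 and 1 with TPM by canonical, union exonic and mean transcript length. The hnRNP median was −0.25, −0.28 and −0.78 and the SRSF median 0.05, −0.20 and −0.59, beside 0.49, 0.40 and 0.06 for all tested genes. The cause was not tested beyond the change of length. With canonical length, the ratios that changed sign became 1.29 for HNRNPA0, 0.14 for HNRNPA1, 0.31 for HNRNPA3, 0.12 for HNRNPC, 0.86 for HNRNPDL, 0.98 for HNRNPLL, 0.69 for HNRNPU, 0.13 for HNRNPUL2-BSCL2, 0.49 for SRSF1, 1.41 for SRSF10, 0.73 for SRSF11, 0.05 for SRSF2, 0.70 for SRSF3 and 0.51 for SRSF8. With mean transcript length they became 1.65 for HNRNPA0, 0.38 for HNRNPA3, 0.36 for HNRNPDL, 0.38 for HNRNPLL, 0.23 for HNRNPU, 0.50 for HNRNPUL2-BSCL2 and 0.09 for SRSF8. With union exonic length they became 0.50 for HNRNPA0, 0.17 for HNRNPA1, 0.52 for HNRNPC, 0.30 for HNRNPD, 0.40 for HNRNPDL, 0.72 for HNRNPLL, 0.14 for HNRNPM, 1.59 for HNRNPU, 1.24 for SRSF10, 1.02 for SRSF11, 0.64 for SRSF3 and 0.02 for SRSF9.

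No paired analysis was possible because each platform has 1 library. For the same reason no replicate was left out. At the Nanopore depth, 3 counts are 7.44 CPM, and HNRNPA1L2, HNRNPLL and SRSF8, with 8 Nanopore counts or fewer, had intervals that include 0. The interval of HNRNPA1L3, also with 8, did not (−2.39 to −0.48), and that of SRSF2, with 89, did (−0.54 to 0.08).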
